A study of Mus musculus with 4 samples.

Results

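The insulin-like growth factor (Igf) genes described here are 9 of the 23997 genes in the table that the authors deposited, and were found by their gene symbols. They comprise the ligands *Igf1* and *Igf2*, the receptor *Igf1r* and the binding proteins *Igfbp2*, *Igfbp3*, *Igfbp4*, *Igfbp5*, *Igfbp6* and *Igfbp7*. The genes were selected with their values in this same table already known, so the values are given as a description and no test was made on them. The RNA-Seq experiment compared 2 populations of hair cell (HC) progenitors sorted by EGFP from the cochleae of C57BL/6 mice at postnatal day 3, with no treatment named. The source of Lgr5+ cells was the Lgr5-EGFP-IRES-CreERT2 line, and that of Lgr6+ cells the Lgr6-EGFP-IRES-CreERT2 line. In these reporters EGFP is driven from the *Lgr5* or the *Lgr6* locus, so the populations come from different mouse lines and are defined by the reporter and not by cell shape. At this age the Lgr6 reporter marks part of the inner pillar cells, whereas the Lgr5 reporter also marks inner phalangeal cells, the outermost row of Deiters' cells and the lateral greater epithelial ridge. By the sample labels each population has 2 libraries, although 3 fractions of each RNA are described in the methods.

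Igf1 and Igf2 are secreted growth factors that bind the receptor tyrosine kinase Igf1r, which signals through insulin receptor substrates to the PI3K-Akt and the Ras-MAPK pathways. Most of the ligand outside cells is held by Igf binding proteins, which prolong its life and limit or assist its access to the receptor. Igfbp7 is a more distant relative that binds Igf weakly and is abundant in vessel walls. Igf1 is known to support growth and survival of the inner ear, and Igf is a routine supplement of the medium in which cochlear progenitors form spheres.

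Expression is given as FPKM (fragments per kilobase of transcript, scaled to the number of mapped fragments), with 1 value per gene and population that already merges the libraries. The spread between replicates is therefore not known from these values, and no difference was checked against replicates here. The paper also reports q-PCR between the populations for chosen genes, with primers for *Hes5* but for no Igf gene. It describes those q-PCR results as matching its RNA-Seq. The log2 difference used here is log2(FPKM + 1) of Lgr6+ cells minus that of Lgr5+ cells, and the added 1 makes the differences of weakly expressed genes smaller. Genes that reached an FPKM of 1 in either population were kept, and a kept gene was called different when it was at least 1.5-fold apart on this scale. Of 13436 kept genes, 28.5% were called higher in Lgr6+ cells and 23.3% higher in Lgr5+ cells. Of all called genes, 55.0% were thus higher in Lgr6+ cells, and 69.3% when both populations were scaled to the same summed FPKM, which moved the median log2 difference of all kept genes from 0.03 to 0.27. At a minimum FPKM of 5 the genes called higher in Lgr6+ and in Lgr5+ cells numbered 2415 and 2414, and the share was 48.8% after quantile normalization and 48.7% when both populations had to reach an FPKM of 1, so which population had more called genes depended on the setting. The paper checked its sorted cells by re-sorting, by staining, with no cells positive for the hair cell protein Myo7a, and by q-PCR. That q-PCR compared each population with its own negative cells and not with the other population. In the combined FPKM the sorting genes did not separate the populations by label. *Lgr5* had an FPKM of 9.65 in Lgr5+ and 25.0 in Lgr6+ cells, *Lgr6* had 2.06 and 2.90, and the supporting cell gene *Sox2* had 140 and 54.8.

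Of the 9 Igf genes 8 were kept, and 3 of these, or 37.5%, were at least 1.5-fold apart, against 51.8% of all kept genes. *Igfbp4* and *Igfbp7* were the 2 genes higher in Lgr6+ cells, which is 25.0% of the kept Igf genes. *Igfbp5* was the 1 gene higher in Lgr5+ cells, which is 12.5%. The 25.0%, a share of 8 genes, lay near the share of all kept genes, which was 28.5% here, 24.4% after quantile normalization and 21.4% when both populations had to reach an FPKM of 1. The median log2 difference was -0.03 over the 8 kept Igf genes and 0.03 over all kept genes. The gene nearest to the threshold on the inside was *Igfbp4*, with 1.83-fold, and the nearest on the outside was *Igfbp3*, with 1.49-fold.

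The plot of FPKM by gene shows both values of each Igf gene. In Lgr5+ cells the order from high to low was *Igfbp5*, *Igfbp3*, *Igfbp2*, *Igf2*, *Igfbp4*, *Igf1r*, *Igf1*, *Igfbp7* and *Igfbp6*. In Lgr6+ cells it was *Igfbp7*, *Igfbp3*, *Igfbp5*, *Igfbp2*, *Igfbp4*, *Igf2*, *Igf1r*, *Igf1* and *Igfbp6*. FPKM is a value per transcript length, so levels of different genes may be set side by side, but with no spread at hand it cannot be said which neighbours in these orders differ.

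**Figure D1:**
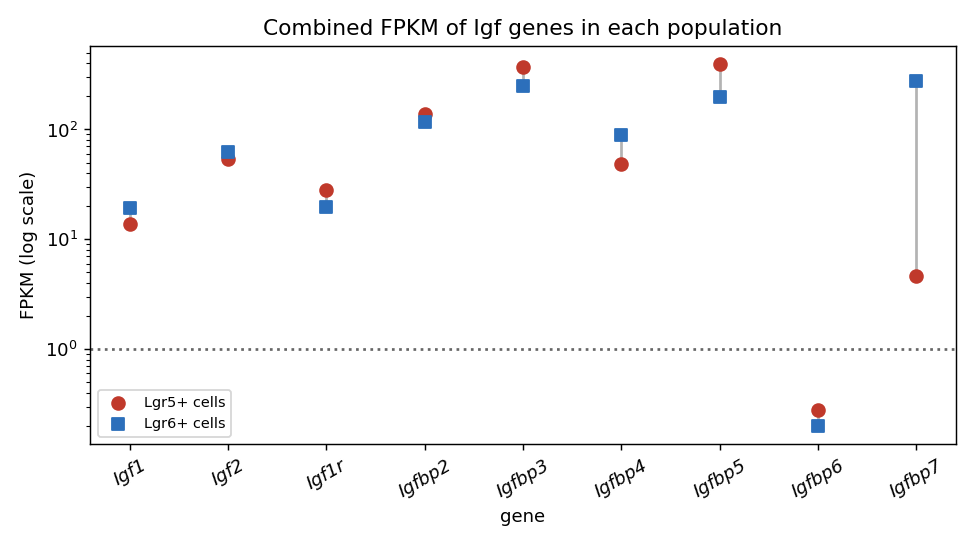
FPKM on a log axis for each Igf gene in Lgr5+ cells (red circles) and Lgr6+ cells (blue squares), with 1 combined value per population, a grey line between both values and a dotted line at an FPKM of 1. *Igfbp7* has the longest line, from 4.59 to 277, and *Igfbp6* lies under the dotted line in both populations.

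Regions before a transcription start are shown for the 3 called genes, since these carry the differences that follow. Each is the 250 bases before a transcript start, read 5′ to 3′ along the gene, from RefSeq on build GRCm38.p6. On this build the table places the start coordinate of 8 of the 9 Igf genes within 2 kb of RefSeq. For *Igfbp4* the transcript start used lies inside the RefSeq gene interval, which begins at 99040005, so its region is not before the outermost start. Capitals mark matches on either strand to the GC box, whose letters are GGGCGG, to the TATA box, with the letters TATAAA, and to the CCAAT box. On the opposite strand the GC box reads CCGCCC. No motif overlapped another in these regions.
*Igfbp7*, chr5:77408046-77408295, minus strand: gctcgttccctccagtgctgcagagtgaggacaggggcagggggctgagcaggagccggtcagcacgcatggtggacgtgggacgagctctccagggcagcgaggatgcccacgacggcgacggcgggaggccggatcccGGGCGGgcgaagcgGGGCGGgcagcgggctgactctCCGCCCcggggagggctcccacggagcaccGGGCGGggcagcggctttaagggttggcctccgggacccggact
*Igfbp5*, chr1:72874866-72875115, minus strand: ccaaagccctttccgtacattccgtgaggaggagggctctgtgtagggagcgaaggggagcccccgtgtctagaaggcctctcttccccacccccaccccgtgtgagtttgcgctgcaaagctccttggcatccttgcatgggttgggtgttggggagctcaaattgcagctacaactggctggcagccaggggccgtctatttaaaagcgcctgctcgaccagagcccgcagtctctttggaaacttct
*Igfbp4*, chr11:99040994-99041243, plus strand: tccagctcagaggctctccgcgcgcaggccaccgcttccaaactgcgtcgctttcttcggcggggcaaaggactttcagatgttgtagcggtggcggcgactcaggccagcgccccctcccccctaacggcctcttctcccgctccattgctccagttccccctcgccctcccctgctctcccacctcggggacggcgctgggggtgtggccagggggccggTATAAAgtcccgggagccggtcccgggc
The *Igfbp7* region held 4 GC boxes, the *Igfbp4* region held 1 TATA box, and the *Igfbp5* region held none of these motifs. Among 32851 promoter regions of the same length, 32.7% held a GC box, 12.4% a TATA box and 33.8% a CCAAT box. CG dinucleotides numbered 26 in the *Igfbp7* region, 22 in the *Igfbp4* region and 10 in the *Igfbp5* region, against a median of 6 over all promoter regions. These matches describe the letters of the regions only.

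Both ligands were expressed in both populations and neither was 1.5-fold apart. *Igf2*, the fetal growth factor expressed from the paternal allele, had an FPKM of 54.0 in Lgr5+ cells and 61.7 in Lgr6+ cells, a log2 difference of 0.19. *Igf1*, the ligand of postnatal growth, had 13.8 and 19.3, a log2 difference of 0.46 that became 0.71, past 1.5-fold, when both populations were scaled to the same summed FPKM. *Igf2* was therefore 3.91 times *Igf1* in Lgr5+ cells and 3.20 times in Lgr6+ cells. RefSeq places *Igf2* on chromosome 7 from 142650768 to 142666816 and *Igf1* on chromosome 10 from 87858265 to 87937047. *Igf2os*, the antisense transcript that shares the interval of *Igf2* in the table, had an FPKM of 0.0848 in Lgr5+ and 0.0266 in Lgr6+ cells. The libraries do not mark strand, so where both genes overlap these values cannot tell antisense signal from that of *Igf2*.

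The receptor *Igf1r* lies on chromosome 7 from 67952257 to 68233668 and had 28.3 FPKM in Lgr5+ cells and 19.8 in Lgr6+ cells. Its log2 difference of -0.49 was under 1.5-fold. *Igf2r*, which takes up Igf2 for breakdown, had an FPKM of 10.3 and 6.59, a log2 difference of -0.58 that was also under 1.5-fold. The insulin receptor *Insr* had 7.66 and 6.32. The insulin genes *Ins1* and *Ins2* and the related receptor *Insrr* were listed at 0 in both populations.

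*Igfbp2*, *Igfbp3* and *Igfbp5* had a higher FPKM than both ligands and the receptor in both populations, whereas *Igfbp6* was the lowest Igf gene in both. The composition of the binding proteins differed more than their sum. The FPKM of *Igfbp2* to *Igfbp7* reached a sum of 961 in Lgr5+ cells against 934 in Lgr6+ cells, which is 97.2% of the former. Without *Igfbp7* the sums were 956 and 656, of which the latter was 68.6% of the former. These sums depend on the scaling. As a share of the summed FPKM of all genes, *Igfbp2* to *Igfbp7* made up 0.127% in Lgr5+ cells and 0.149% in Lgr6+ cells, the reverse order. *Igfbp3* and *Igfbp5* together made up 79.9% of the sum in Lgr5+ cells and 48.1% in Lgr6+ cells. *Igfbp7* made up 0.477% and 29.7%. The binding protein sum was 14.2 times the summed FPKM of both ligands in Lgr5+ cells and 11.5 times in Lgr6+ cells.

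**Figure D2:**
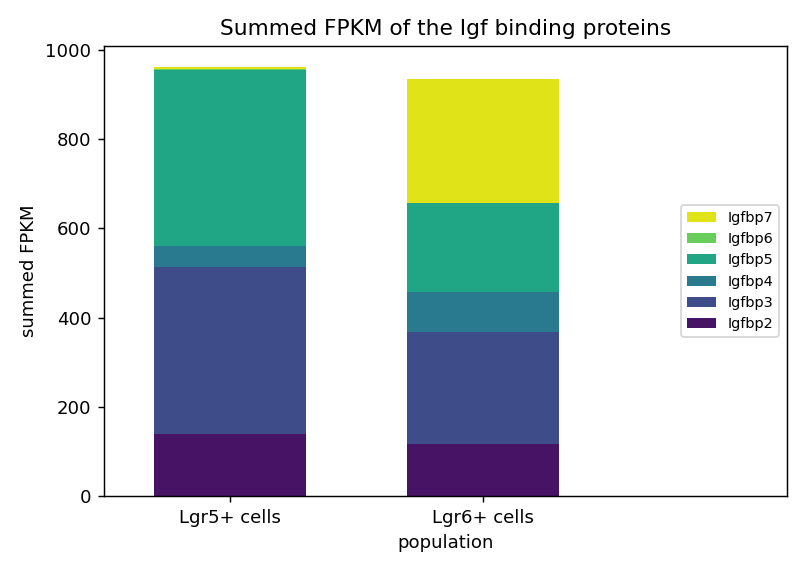
Stacked bars of the FPKM of the 6 binding proteins in Lgr5+ cells and Lgr6+ cells, starting at 0, with 1 combined value per gene and population. The bars end at 961 and 934, and the yellow part for *Igfbp7* is 4.59 in Lgr5+ cells and 277 in Lgr6+ cells.

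*Igfbp7* lies on chromosome 5 from 77349240 to 77408045. Its FPKM was 4.59 in Lgr5+ cells and 277 in Lgr6+ cells, the lowest but 1 and the highest of the Igf genes in these populations. The Lgr6+ value was 60.4 times the Lgr5+ value as a plain ratio, and the log2 difference of 5.64 ranked 4 among the 13436 kept genes. By FPKM the gene ranked 9001 of 23997 genes in Lgr5+ cells and 369 in Lgr6+ cells. *Igfbp7* and *Polr2b*, which encodes a subunit of RNA polymerase II on the opposite strand, share 1 interval in the table because their ends overlap by 89 bases in RefSeq. The FPKM of *Polr2b* was 10.4 and 14.9, a log2 difference of 0.48. Low FPKM values in the table fall on steps, and on an *Igfbp7* transcript of 1120 bases the gene held 32.9 steps in Lgr5+ cells and 6389 in Lgr6+ cells. A step may be 1 fragment, or less where libraries were merged, so these are not counts of fragments. The step was larger in Lgr5+ cells (0.128) than in Lgr6+ cells (0.0399), so numbers of steps cannot be compared between the populations.

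*Igfbp5*, a binding protein of bone and connective tissue that also binds matrix, lies on chromosome 1 from 72858065 to 72874865. Its FPKM was 394 in Lgr5+ cells, the highest of the Igf genes there, and 199 in Lgr6+ cells. The log2 difference was -0.99, and 1633 kept genes had a lower one. *Igfbp3*, the main carrier of Igf in blood, had an FPKM of 373 in Lgr5+ and 250.1 in Lgr6+ cells, a log2 difference of -0.58 that was just under 1.5-fold and came to -0.29 after quantile normalization and -0.31 at the same summed FPKM. The ratio of *Igfbp5* to *Igfbp3* was 1.06 in Lgr5+ cells and 0.794 in Lgr6+ cells.

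*Igfbp4*, a binding protein that restrains Igf until the protease Pappa cuts it, lies on chromosome 11 from 99040005 to 99052655. It had an FPKM of 48.7 in Lgr5+ cells and 89.8 in Lgr6+ cells, a log2 difference of 0.87, and 2805 kept genes had a higher one. *Igfbp2*, a binding protein abundant in fetal tissues, had an FPKM of 139 and 118, a log2 difference of -0.24 that became 0.02 when both populations were scaled to the same summed FPKM. *Igfbp6*, which prefers Igf2, was the 1 Igf gene that was not kept, with an FPKM of 0.276 and 0.201. On its transcript of 1112 bases this corresponds to 1.96 and 4.59 steps, whose size differs between the populations.

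Some of the binding protein genes are neighbours. *Igfbp2* and *Igfbp5* face each other tail to tail on chromosome 1 with 5590 bases between them, and *Igfbp5* was called different while *Igfbp2* was not. *Igfbp1* and *Igfbp3* face each other in the same way on chromosome 11, from 7197787 to 7202546 and from 7206086 to 7215498, with 3539 bases between them. *Igfbp1*, a binding protein of liver, was listed at 0 in Lgr5+ cells and had an FPKM of 0.0232 in Lgr6+ cells.

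The genes with the pattern most like *Igfbp7* were sought by the distance in log2(FPKM + 1) over the 2 populations. The nearest was *Otos*, which encodes otospiralin of cochlear fibrocytes, with an FPKM of 5.60 in Lgr5+ and 248 in Lgr6+ cells and a distance of 0.29. *Fcrlb* followed with 3.82 and 164 at a distance of 0.78, and *Strip2* with 6.85 and 115 at a distance of 1.36. *Otos* was the 1 kept gene within a distance of 0.5 of *Igfbp7*. The nearest genes to *Igfbp5* were *Siva1*, *Hist1h1e* and *Lect1*, at distances of 0.02, 0.07 and 0.07, and 70 kept genes lay within 0.5 of it. A distance over 2 values is a weak measure of likeness.

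Other genes of the pathway were taken from lists of 67 genes, of which 55 were kept. Of the kept genes 14, or 25.5%, were higher in Lgr6+ cells and 13, or 23.6%, were higher in Lgr5+ cells, both close to the 28.5% and 23.3% of all kept genes. The median log2 difference over the kept pathway genes was 0.17. After quantile normalization 8 of the 55 pathway genes were higher in Lgr6+ cells and 15 in Lgr5+ cells, where 24.4% and 25.7% of all kept genes were. The balance of the lists thus also depended on the setting.

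Among the other binding proteins and the proteins that regulate them, 3 of 7 were kept and all 3 were called, where 51.8% of all kept genes were. *Stc2*, an inhibitor of Pappa, had an FPKM of 8.92 in Lgr5+ cells and 2.52 in Lgr6+ cells, and the related *Stc1* had 1.76 and 3.84. *Igfbpl1*, a binding protein-like gene, had 3.43 and 0.362. *Pappa* itself was listed at 0 in Lgr5+ cells and had 0.0239 in Lgr6+ cells. Of the proteins that bind *Igf2* mRNA, *Igf2bp1* was higher in Lgr5+ cells, with a log2 difference of -1.11, and *Igf2bp3* was higher in Lgr6+ cells, with 0.74.

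Downstream of the receptor, 9 of 37 kept genes were higher in Lgr6+ cells and 7 were higher in Lgr5+ cells, or 24.3% and 18.9%. Both shares were below the 28.5% and 23.3% of all kept genes. Of the adaptors, *Irs2*, a docking protein of the insulin and Igf1 receptors, had an FPKM of 17.3 in Lgr5+ cells and 3.96 in Lgr6+ cells. *Grb10* and *Grb14*, adaptors that dampen these receptors, were also higher in Lgr5+ cells, with log2 differences of -1.13 and -0.84. *Gab1* and *Sos1* were higher in Lgr6+ cells, with 0.59 and 0.72. In the PI3K-Akt-mTOR list 6 of 20 kept genes were higher in Lgr6+ cells, or 30%, near the 28.5% of all kept genes. The largest difference among them was that of *Rheb*, an activator of mTOR, with an FPKM of 34.1 and 73.1. The 2 genes of that list higher in Lgr5+ cells were the kinase *Rps6kb1* and the transcription factor *Foxo4*, with log2 differences of -1.22 and -0.97. In the Ras-MAPK list *Hras* and *Nras* were higher in Lgr5+ cells, with log2 differences of -0.79 and -0.62.

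Proteins that carry a domain of the binding protein type without being classical Igf carriers were divided, with 3 of 9 kept genes higher in each population. This is 33.3% each way, against 28.5% and 23.3% of all kept genes for Lgr6+ and Lgr5+ cells. *Cyr61* and *Ctgf*, matrix proteins of the CCN family, had an FPKM of 502 and 93.7 in Lgr5+ cells and of 144 and 20.7 in Lgr6+ cells. *Wisp1*, another CCN gene, was higher in Lgr5+ cells with a log2 difference of -0.82. *Htra1*, a secreted protease, had an FPKM of 0.254 in Lgr5+ and 12.6 in Lgr6+ cells, a log2 difference of 3.43. The CCN gene *Nov* and *Kazald1* were higher in Lgr6+ cells by 1.16 and 0.71 on the log2 scale.

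**Figure D3:**
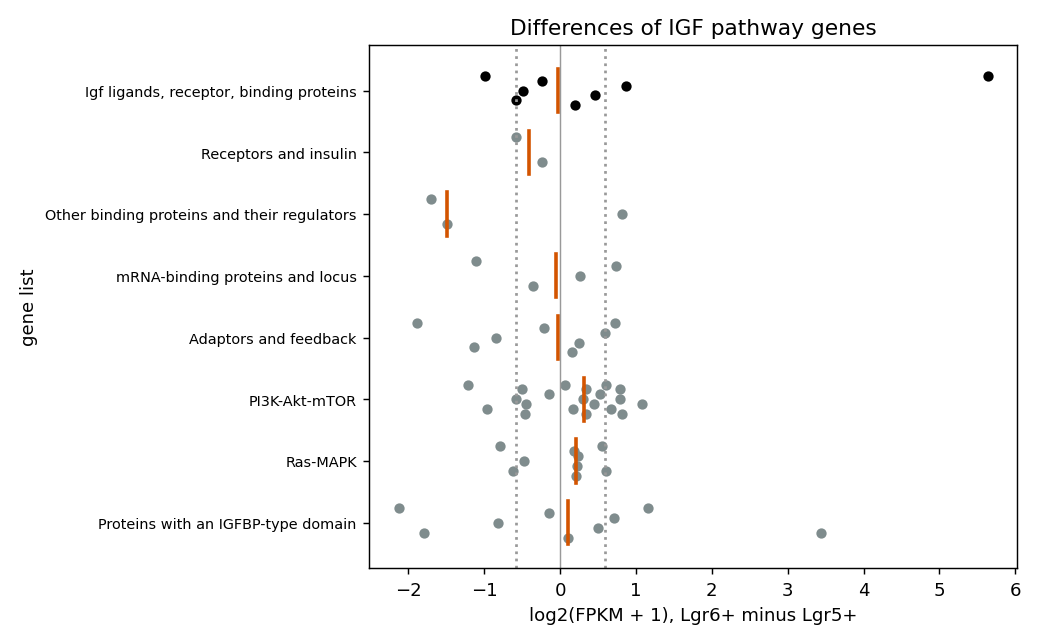
Log2 difference in log2(FPKM + 1), Lgr6+ minus Lgr5+ cells, of each kept gene (points) in the Igf genes and in 7 pathway lists, with orange bars at the medians and dotted lines at 1.5-fold. *Igfbp7* at 5.64 and *Htra1* at 3.43 lie farthest to the right, and the medians of the 4 largest lists lie between -0.03 and 0.32.

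Markers of cells other than supporting cells also differed between the populations, and some moved with *Igfbp7*. For comparison, 28.5% of all kept genes were higher in Lgr6+ cells and 23.3% in Lgr5+ cells. All 10 endothelial markers were kept, 9 were higher in Lgr6+ cells and *Tie1* was higher in Lgr5+ cells, and their FPKM summed to 21.2 in Lgr5+ and 111 in Lgr6+ cells. *Kdr* was the 1 endothelial marker listed at 0 in Lgr5+ cells, and *Pecam1* had 0.303 and 8.31. Of 10 macrophage markers 8 were kept and all 8 were higher in Lgr6+ cells, with sums of 3.88 and 264, and 6 of the 10 were listed at 0 in Lgr5+ cells. The fibrocyte and mesenchyme markers summed to 343 and 677, with 6 of 11 higher in Lgr6+ cells, 4 not called and *Lum* higher in Lgr5+ cells. *Otos* alone had 5.60 and 248 of these sums. The pericyte markers summed to 8.27 and 9.90, most of it from *Pdgfrb* with 8.25 and 5.69. Of the 2 kept pericyte markers, *Rgs5* was higher in Lgr6+ cells, listed at 0 in Lgr5+ cells and at 2.64 in Lgr6+ cells. In all, 4 of the 6 pericyte markers were listed at 0 in Lgr5+ cells, *Acta2* in both populations. The Schwann and glial markers summed to 158 and 300, with 2 of 5 kept genes higher in Lgr6+ cells. The part of these cells in the *Igfbp7* and *Igfbp4* differences was not tested, and in such bulk samples fewer cells of a type and less RNA per cell cannot be told apart.

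Of the other marker lists, the otic epithelium and erythroid lists were mostly higher in Lgr5+ cells, as *Igfbp5* was. The otic epithelium markers summed to 1412 in Lgr5+ and 768 in Lgr6+ cells, with 4 of 6 higher in Lgr5+ cells and none higher in Lgr6+ cells. The 8 supporting cell markers were all kept and summed to 821 and 309, with 2 higher in each population, and *Hes5* alone had 505 and 91.7. The erythroid markers summed to 629 and 108, with 4 of 5 higher in Lgr5+ cells. The hair cell markers summed to 710 and 915, with 6 of 8 higher in Lgr6+ cells, although HCs were not sorted. The neuron markers summed to 113 and 126, with *Snap25* the 1 of 6 higher in Lgr6+ cells and 2, *Gap43* and *Tubb3*, higher in Lgr5+ cells. The melanocyte markers summed to 1.68 and 3.97, with 1 of 2 kept genes higher in each population. The part of these lists in the *Igfbp5* difference was not tested.

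**Figure D4:**
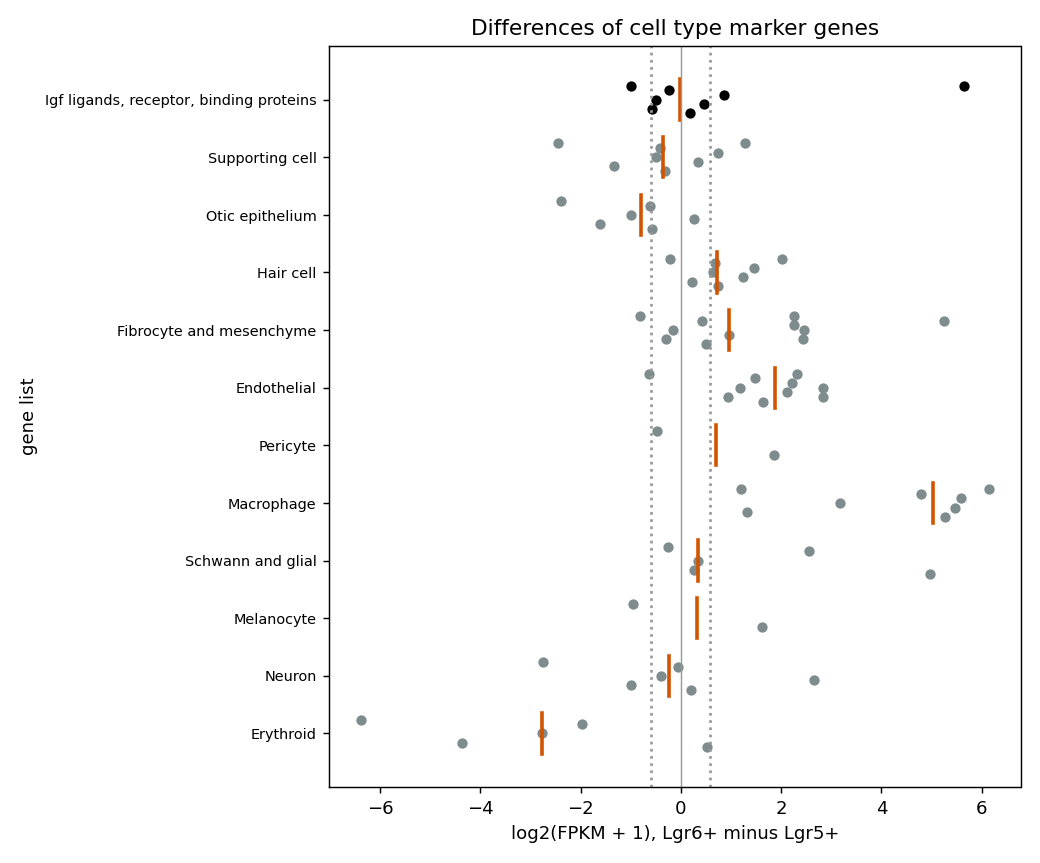
Log2 difference in log2(FPKM + 1), Lgr6+ minus Lgr5+ cells, of each kept gene (points) in the Igf genes and in 11 lists of cell type markers, with orange bars at the medians and dotted lines at 1.5-fold. The macrophage and endothelial points lie mostly to the right, as *Igfbp7* at 5.64 does, and the erythroid points lie mostly to the left.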

How the data were processed

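RNA-Seq libraries of sorted Lgr5+ and Lgr6+ progenitors, 4 in all, were made by the authors with a low-input cDNA kit that does not mark strand. Reads were trimmed with Trimmomatic, mapped with TopHat and quantified with Cufflinks, whose versions are not given in the sources used here. The paper names mm9, and the submitters' processing notes name mm10. The deposited FPKM values are combined values of a population. For 22369 genes with the same symbol and chromosome in RefSeq GRCm38.p6, 82.3% of the starts lay within 2 kb, so positions were read as GRCm38. The table also holds the authors' own log2 fold change, p-value and q-value, which were not used.

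A limma fit was planned for values per sample. As the table holds 1 value per population, no test was run. A pseudocount of 1, a minimum FPKM of 1 in either population and a 1.5-fold threshold were used. The Igf genes and all lists were chosen with earlier results of these data known. By rule, the gene of each list with the largest difference in each direction past 1.5-fold was named, as were the 3 genes nearest to the Igf gene with the largest difference in each direction, and other list genes were named after their values were seen. No counts are in the table. FPKM times transcript length less 200 bases, over 7050 genes with 1 transcript in GENCODE, held 96 values within 3% of a step of 0.128 in Lgr5+ cells against 10.5 beside it, and 43 at 0.0399 in Lgr6+ cells against 8 beside it. Alternatives were a pseudocount of 0.1, a plain ratio, other filters, 3 scalings and a 2-fold threshold. Python 3.11.15, numpy 2.4.6, pandas 2.3.3 and matplotlib 3.10.9 were used, and the calls were tested on simulated data.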

Additional observations from a re-analysis of the deposited data

How the results depend on the processing

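*Igfbp7*, *Igfbp4* and *Igfbp5* kept their direction and stayed past 1.5-fold with the other pseudocount, the plain ratio and the 3 scalings. Their log2 differences ranged from 5.64 to 5.92, 0.87 to 1.13 and -0.99 to -0.72, the main setting included. The other filters do not change the log2 difference of a gene, so they are no check on it. With a 2-fold threshold 1 of 8 kept Igf genes was higher in Lgr6+ cells and 0 in Lgr5+ cells. The pathway lists held 3 and 8 such genes among 55 kept. All kept genes held 2443 and 1575, or 18.2% and 11.7%. The median log2 difference of the Igf genes was -0.09 with no filter on low values, 0.09 after quantile normalization and 0.24 at the same summed FPKM. At that sum *Igf1* was past 1.5-fold, with 0.71. Quantile normalization left 8 of 55 pathway genes higher in Lgr6+ cells and 15 of 55 in Lgr5+ cells, against 24.4% and 25.7% of all kept genes. It brought *Igfbp3* from -0.58 to -0.29. A minimum FPKM of 5 and the demand that both populations reach an FPKM of 1 left 2415 and 2392 of all genes higher in Lgr6+ cells, against 2414 and 2516 higher in Lgr5+ cells. Beyond the smaller number of genes under a filter and the construction of the threshold and scalings, the cause was not tested. No paired analysis was possible because the table holds 1 combined value per population, and for the same reason leaving out each replicate and the fit with a replicate block were not run. Replicate spread and depth per library limit every value here.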

Other observations

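*H19*, the noncoding RNA of the same imprinted cluster as *Igf2*, had an FPKM of 52.8 in Lgr5+ cells and 63.5 in Lgr6+ cells, next to 54.0 and 61.7 for *Igf2*. By distance in log2(FPKM + 1) over the 2 populations *H19* was the gene second nearest to *Igf2*, at 0.05, with 380 kept genes within 0.5 of *Igf2*. This gene was singled out after its values were seen, and 2 values per gene give no measure of whether both genes vary together.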
